A study of Mus musculus with 26 samples.

Results

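Interferon-responsive microglia were cells of the 14-day-old (P14) mouse cortex that carried RNA of genes which type I interferon induces, and 310 of 29452 P14 microglia (1.05%) met the definition used here. Members were chosen by their own unique molecular identifiers (UMIs, 1 per captured RNA molecule). A cell was kept when it had at least 500 detected genes and at most 20% mitochondrial UMIs, it was taken as a microglial cell when Csf1r and C1qa together had at least 2 UMIs and the border macrophage genes F13a1 and Ms4a7 together had at most 1, and it was called interferon-responsive when Ifit1, Ifit2, Ifit3, Isg15, Irf7, Usp18, Rsad2, Oasl2 and Ifi27l2a summed to at least 6 UMIs. The 6 libraries came from primary somatosensory cortex of C57Bl/6N wild-type pups, with the meninges removed and microglia sorted as Cd11b+ Cx3cr1+ Cd45low cells. Their mothers had received an intraperitoneal injection at E12.5, either saline or poly(I:C), which mimics viral RNA and sets off maternal immune activation (MIA). There were 4 saline and 2 MIA libraries. Pups of each sex were pooled in saline 1, saline 2, MIA 1 and MIA 2, while saline 3-female and saline 3-male held the sexes of replicate 3 apart. The comparison of ages also used sorted microglia of E15 wild-type embryos, in 3 saline and 3 MIA libraries. Their mothers were injected at E12.5 as well. All groups were wild type and every mother was injected, so no untreated animals enter the comparisons.

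Type I interferons are secreted proteins that bind the receptor pair Ifnar1 and Ifnar2 on the same or a neighbouring cell. The receptor's kinases, Jak1 and Tyk2, phosphorylate transcription factors, among them Stat2, which join Irf9 and bind a DNA element called the interferon-stimulated response element (ISRE). The genes switched on in this way encode sensors of foreign nucleic acid, enzymes and membrane proteins that block viral entry or growth, the antigen-presenting machinery, and Irf7, which amplifies the response. In the brain, microglia are among the cells that respond, and small numbers of microglia with such a profile are known from the healthy developing cortex.

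The ISRE core was looked for as the letters GAAANNGAAA, or TTTCNNTTTC on the opposite strand, in the 250 bases before each gene's start, taken from RefSeq promoter windows on GRCm38.p6. Matches to the letters can overlap one another. Of the 9 interferon genes of the definition, 7 had a window and 4 of these held the letters, namely Isg15, Ifit3, Ifit1 and Rsad2. The windows of Ifit2, Irf7 and Oasl2 did not hold these letters, and no window was used for Usp18 or Ifi27l2a. The 180 bases before the start of the 4 genes are shown because they hold the letters searched for, in lower case with the matches in capitals, 5′ to 3′ along the gene. They are Isg15 at chr4:156200819-156200998 on the minus strand, Ifit3 at chr19:34583349-34583528 on the plus strand, Ifit1 at chr19:34640709-34640888 on the plus strand and Rsad2 at chr12:26456453-26456632 on the minus strand.
Isg15: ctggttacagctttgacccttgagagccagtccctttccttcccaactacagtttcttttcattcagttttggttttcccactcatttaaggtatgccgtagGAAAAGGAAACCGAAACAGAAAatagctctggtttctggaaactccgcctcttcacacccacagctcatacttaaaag
Ifit3: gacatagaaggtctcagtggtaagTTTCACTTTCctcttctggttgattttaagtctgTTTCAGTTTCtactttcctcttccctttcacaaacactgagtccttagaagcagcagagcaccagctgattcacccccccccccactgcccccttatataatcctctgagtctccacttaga
Ifit1: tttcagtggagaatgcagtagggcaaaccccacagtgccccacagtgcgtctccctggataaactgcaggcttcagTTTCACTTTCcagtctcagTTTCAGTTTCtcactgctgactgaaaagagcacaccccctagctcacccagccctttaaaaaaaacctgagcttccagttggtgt
Rsad2: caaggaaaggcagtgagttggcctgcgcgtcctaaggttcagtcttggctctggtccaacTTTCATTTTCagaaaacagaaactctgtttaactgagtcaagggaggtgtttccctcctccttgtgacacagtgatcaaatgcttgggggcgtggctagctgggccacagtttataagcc
Isg15, a ubiquitin-like modifier, had 3 overlapping matches whose first bases lay 78, 72 and 66 bases before the start. Ifit3 and Ifit1 had 2 separate matches each, 156 and 122 bases before the start in Ifit3 and 104 and 85 bases before it in Ifit1. Rsad2, the antiviral enzyme viperin, had 1 match 120 bases before the start. A match to these letters is a description of the window and not a measured binding site.

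Some barcodes were listed in more than 1 library. Saline 3-female and saline 3-male shared 239 barcodes past the filter, of which 12 were members in each library and 17 in at least 1, and the ratio of a shared barcode's UMIs (male over female library) had quartiles of 0.858 and 0.878. Saline 1 and MIA 1 shared 114 barcodes, of which 1 was a member in either library. The 310 members comprised 298 distinct barcodes, and 279 were not shared. Xist or Tsix, expressed from the inactive X chromosome of females, had a UMI in 93.1% of saline 3-female microglia and 1.64% of saline 3-male microglia, but in 15.4% of the 65 saline 3-male members. Because of this, results that rest on the saline 3 libraries are also given without shared barcodes, a setting added once the values were known.

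The P14 libraries held 22187944 to 32527293 UMIs in barcodes past the filter. Members were somewhat deeper than other microglia, with medians of 4889 to 7675 UMIs per cell by library against 3688 to 6825. Csf1r, the receptor microglia need to survive, averaged 16.2 to 29.8 UMIs per member, and C1qa, a complement subunit, averaged 46.3 to 77.3. Both genes had chosen the cells as microglia, so their levels do not check the label. Summed over 20 homeostatic microglial genes, members had 64580 to 109428 CPM (UMIs of a gene per 1e6 UMIs of the same cells) and other microglia 90776 to 111794.

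The share of interferon-responsive cells was 0.644% in saline 1 (37 of 5749 microglia; exact 95% interval 0.454% to 0.886%). It was 1.15% in saline 2 (43 of 3732; 0.835% to 1.55%), 1.55% in saline 3-female (72 of 4635; 1.22% to 1.95%) and 1.35% in saline 3-male (65 of 4814; 1.04% to 1.72%). In the MIA libraries it was 0.537% (30 of 5586; 0.363% to 0.766%) and 1.28% (63 of 4936; 0.982% to 1.63%). The intervals cover counting error only. MIA 1 lay below every saline library, with an interval that overlapped that of saline 1, and MIA 2 lay inside the range of the saline libraries.

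**Figure D1:**
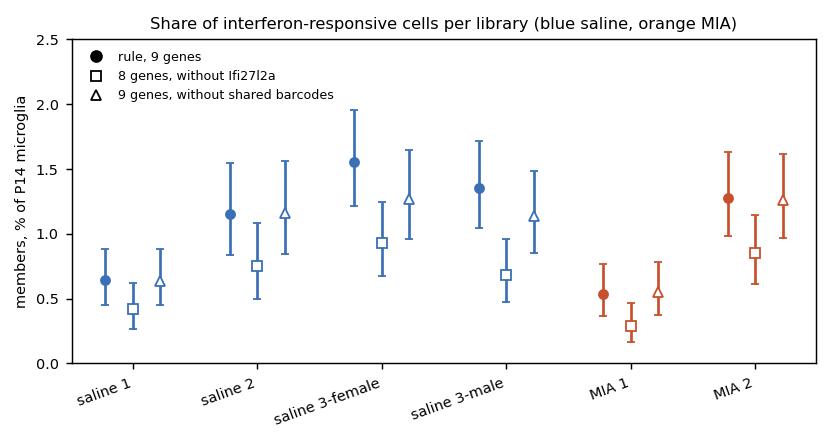
Share of P14 microglia called interferon-responsive (percent, vertical axis) in each of the 6 libraries, with exact 95% binomial intervals as bars, by the 9 genes (circles), by the 8 genes other than Ifi27l2a (squares) and by the 9 genes without shared barcodes (triangles). By the 9 genes the 4 saline libraries lie between 0.644% and 1.55% and the 2 MIA libraries at 0.537% and 1.28%.

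The comparison of treatments asks whether immune activation of the mother left more or fewer such cells in the pups. The mean share was 1.17% ± 0.390 (SD, n = 4) in saline and 0.907% ± 0.523 (SD, n = 2) in MIA, a difference of -0.268 percentage points (two-sided exact permutation test over libraries, p = 0.533; 6 libraries cannot give less than 0.0667). No difference was detectable at this number of libraries. With both saline 3 libraries counted as 1 sample the difference was -0.176 points (exact permutation p = 0.7, smallest possible 0.1). Without MIA 1 it was 0.101 points and without MIA 2 -0.638 points, so the direction depended on which MIA library was kept. After thinning each cell to 2000 UMIs with a threshold of 3 UMIs, the difference was -0.333 points (exact permutation p = 0.2). It was -0.144 points without shared barcodes (exact permutation p = 0.8) and -0.127 points with members chosen on the 8 genes other than Ifi27l2a (exact permutation p = 0.667).

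The genes that chose the members are given as a description. Of all P14 microglia, 25828 (87.7%) had none of these UMIs, 3314 (11.3%) had 1 to 5 and 310 had 6 or more. The fall across the threshold was gradual, with 81 cells at 5 UMIs just outside and 57 at 6 just inside. Members had a median sum of 10 UMIs and a highest sum of 177, and 17 of them had 40 or more. A median of 4 of the 9 genes was detected per member, 4 members had all 9, and 40 members had UMIs of 1 gene alone.

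Isg15 averaged 3.16, 4.35, 2.43 and 1.72 UMIs per member in saline 1, 2, 3-female and 3-male, and 1.73 and 3.84 in MIA 1 and MIA 2. Ifi27l2a, an interferon-induced membrane protein gene, averaged 3.41, 5.00, 4.94, 4.85, 3.43 and 3.14 in the same order. Ifit3 averaged 1.62 to 2.89 over the 6 libraries, Ifit2 0.900 to 2.88, Irf7 0.908 to 1.68 and Oasl2, a relative of the oligoadenylate synthetases, 1.08 to 1.16. Usp18, which removes Isg15 from proteins and damps the receptor, averaged 0.351 to 0.814, Ifit1 0.324 to 1.02 and Rsad2 0.189 to 0.825. Oasl2 was the most even of the 9 across libraries. Ifi27l2a had the highest mean in 5 of 6 libraries and Isg15 in MIA 2, while Ifit3 exceeded Isg15 in both saline 3 libraries and MIA 1. None of the 9 genes had a mean above 0.104 UMIs per cell in other microglia. In the 3 to 15 neuron-like barcodes per library, which should lack them, 7 of the 9 had no UMI and Ifit1 and Ifit2 had 1 each, at medians of 1446 to 2785 UMIs per barcode.

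**Figure D2:**
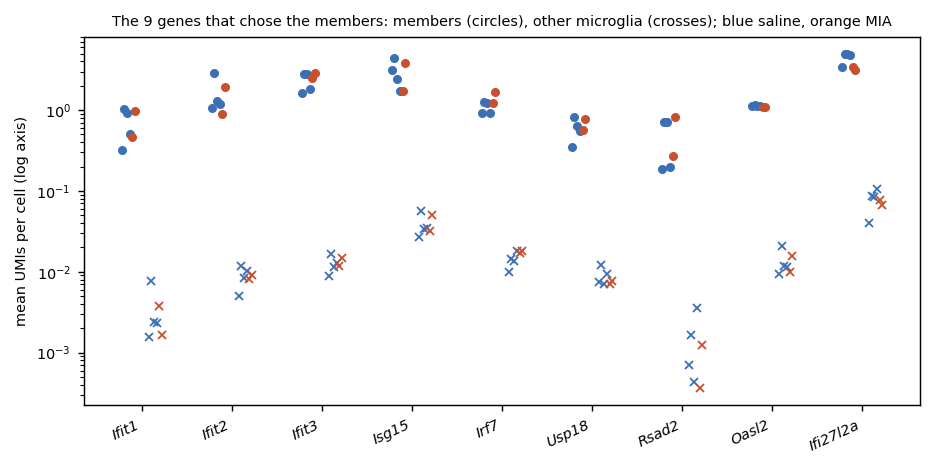
Mean UMIs per cell (vertical axis) of the 9 interferon genes used to choose members, in members (circles) and other microglia (crosses) of each P14 library, on a log axis, with saline in blue and MIA in orange. In members Oasl2 lies between 1.08 and 1.16 in the 6 libraries, and no cross lies above 0.104.

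Ifi27l2a alone supplied 27.6% of the members' summed UMIs. Without it, 186 of the 310 members (60%) still had 6 UMIs or more, 68 had 2 to 5 and 56 had at most 1. Of these 56 members, 22 were in saline 3-female and 19 in saline 3-male, against 3 to 4 in each other library, and 36 of the 56 had unshared barcodes. This split was made after values were seen and is given with no test. Ifitm3, a membrane protein that blocks virus entry and was not used to choose members, had a UMI in 74.2% of the 186 members, 60.3% of the 68 and 26.8% of the 56, against 2.93% of other microglia. Rtp4, a Golgi chaperone induced by interferon, had a UMI in 84.9%, 70.6% and 21.4% against 7.01%. The split used 8 genes of the same response and the shares pool libraries, so their order follows in part from the choice. Dividing cells, with at least 2 UMIs of Mki67, Top2a and Cdk1, made up 8 of the 186, 2 of the 68 and 15 of the 56, and 8 of the 36 with unshared barcodes.

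Genes outside the sum were also read along it, pooled over the 6 libraries. Ifitm3 stood at 4.66 CPM in cells with none of the 9 genes' UMIs, 13.99 at 1 UMI, 38.4 at 2 to 3 and 113 at 4 to 5. It was 183 CPM at 6 to 7 UMIs, 321 at 8 to 9, 420 at 10 to 19, 920 at 20 to 39 and 3076 at 40 or more. There was no step at the threshold, and cells just outside it already carried more Ifitm3 than cells at 0. Bst2, which tethers budding virus to the cell, went from 99.5 to 2455 CPM between the lowest and highest sums and Rtp4 from 12.9 to 531. The chemokine gene Ccl12 stayed between 107 and 202 CPM up to a sum of 9 and then went to 242, 932 and 3877 CPM. P2ry12, the purine receptor that guides homeostatic microglial processes, was 6207 CPM at a sum of 0 and 3742 at 40 or more, and Cx3cr1, the fractalkine receptor, was 4654 and 4034. Median depth was 5182 to 6971 UMIs per cell over these classes.

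**Figure D3:**
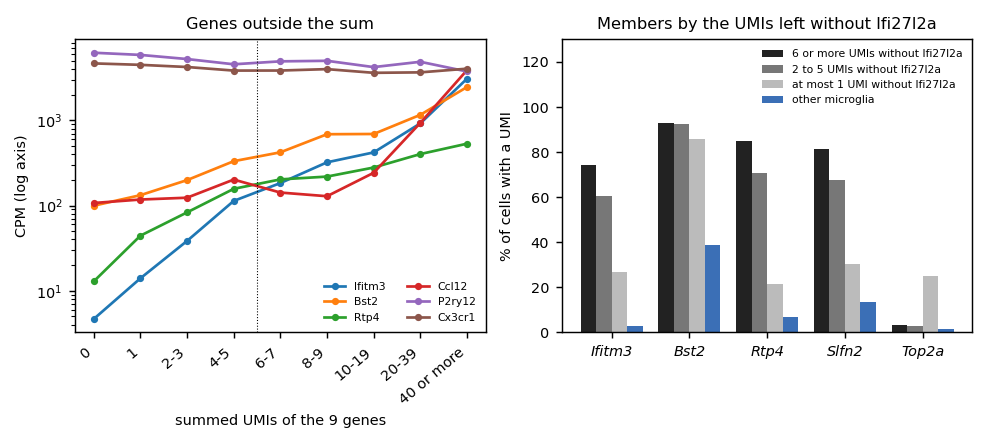
Level (CPM, log vertical axis) of genes outside the definition in P14 microglia grouped by the summed UMIs of the 9 interferon genes (horizontal axis), pooled over 6 libraries, on the left, and the percent of cells with a UMI in members split by the UMIs left without Ifi27l2a, beside other microglia, on the right. Ifitm3 goes from 4.66 to 3076 CPM and Ccl12 leaves its range of 107 to 202 CPM above a sum of 9, while P2ry12 is lower at the highest sums.

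Across the transcriptome, members were compared with the other microglia of the same libraries, with UMIs summed per library and class, the 13 genes of the definition left out and the library as a block (edgeR quasi-likelihood test, Benjamini-Hochberg adjusted p under 0.05). Of 11403 genes, 690 passed (6.05% of those tested), 481 higher in members (4.22%) and 209 lower (1.83%), and the median log2 difference over all genes was -0.06. The count was 436 without saline 3-female and 396 without saline 3-male, and 495 without shared barcodes, 437 of them among the 690. The members' cells were picked for high interferon genes, so a rise of genes of the same response follows the choice and shows how far it reached. Listed interferon-pathway genes were pooled, here and below, without the ligand, receptor and kinase, feedback, class II and cell death lists. Of this pool outside the definition, 103 of 124 tested were higher and 0 lower, with a median log2 difference of 1.57. Without shared barcodes 106 of 124 were higher, and with members chosen on the 8 genes other than Ifi27l2a 104 of 122 were.

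**Figure D4:**
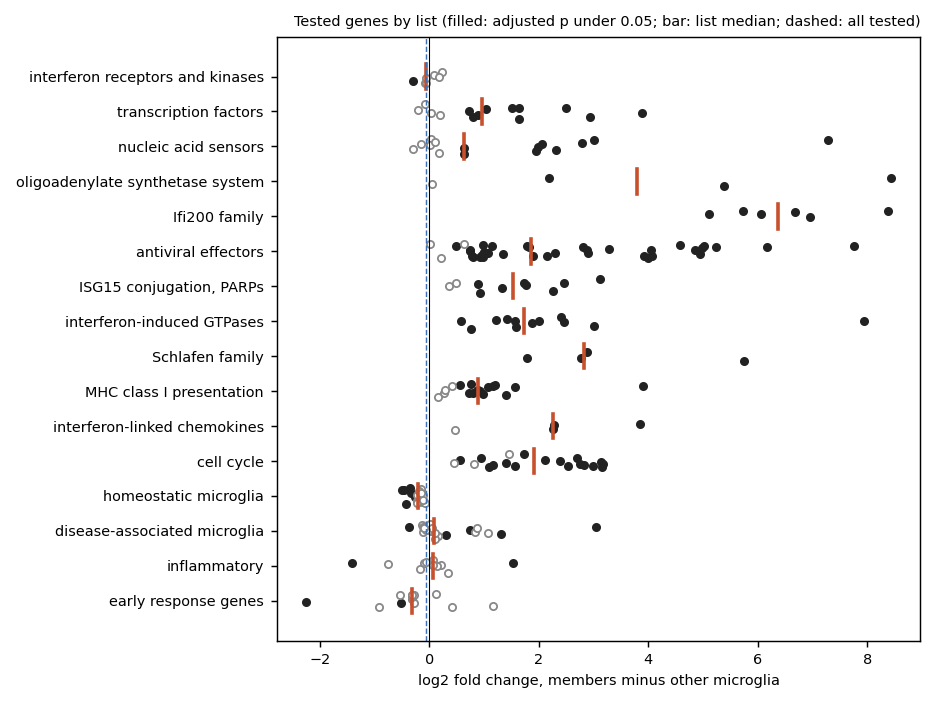
Log2 difference between members and other microglia (horizontal axis, edgeR) for the tested genes of each listed group, 1 point per gene, with the group's median marked. The interferon-induced groups lie to the right of 0, receptors and kinases near 0, and homeostatic genes mostly to its left, with a median of -0.21.

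Interferon genes themselves were not seen. The 20 listed ligand genes, among them Ifnb1, the Ifna family and Ifng, had 0 UMIs in members and 0 in other microglia. Of 7 receptors and kinases, 0 were higher and 1 lower. Ifngr1, a chain of the type II interferon receptor, fell by 0.30 on the log2 scale (SE 0.08, edgeR adjusted p = 0.0151), from 1029 to 1149 CPM in other microglia to 729 to 1041 in members, and this call was lost in several alternatives, including leaving out saline 1 or either saline 3 library. Ifnar2 (log2 difference 0.09, SE 0.10), Jak1 (-0.08, SE 0.09) and Tyk2 (0.24, SE 0.24) did not pass.

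Of 14 signal transducers and transcription factors tested, 10 were higher and 0 lower, with a median of 0.96. Stat2, a transducer of the type I receptor, measured 85.3, 102, 98.3 and 80.2 CPM in members of saline 1, 2, 3-female and 3-male, and 88.6 and 88.2 CPM in MIA 1 and MIA 2. Other microglia held 14.1 to 18.4 CPM, so no member value came near them, and the log2 difference was 2.49 (SE 0.16, edgeR adjusted p = 8.5e-19). Sp100, a nuclear body protein, rose by 3.88 (SE 0.21), and Ifi35, an interferon-induced leucine zipper protein, by 1.64 (SE 0.13).

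Of 15 nucleic acid sensors, 9 rose and 0 fell, with a median of 0.64. Zbp1, which senses Z-form nucleic acid and can start necroptosis, had 34.1, 75.7, 54.8 and 38.2 CPM in members of the 4 saline libraries and 41.4 and 83.9 CPM in the MIA libraries, against 0.241 to 0.492 CPM in other microglia (log2 difference 7.28, SE 0.39, edgeR adjusted p = 4.9e-22). Ifih1 (MDA5) rose by 2.32 (SE 0.18), Ddx58 (RIG-I) by 1.99 (SE 0.15) and Eif2ak2 (PKR), the kinase that halts translation on double-stranded RNA, by 1.94 (SE 0.10). The cytoplasmic RNA sensors rose far less than Zbp1 on the log2 scale, from a higher level in other microglia (13.6 CPM or more in each library).

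Of 4 tested genes of the oligoadenylate synthetase system, 3 rose, with a median of 3.79. Oasl1 was present at 11.4, 26.2, 22.7, 7.64, 29.5 and 34.4 CPM in members (saline 1, 2, 3-female, 3-male, MIA 1, MIA 2) and at 0.0319 to 0.151 CPM in other microglia, the largest log2 difference of the named genes at 8.44 (SE 0.52). Oasl1 lies at chr5:114923240-114937915 on the plus strand, and Gm13822, at chr5:114917318-114923277 on the minus strand, overlaps its start and rose by 7.30 (SE 0.71). The counts of this pair may not be fully separated. Oas1a, an oligoadenylate synthetase that double-stranded RNA activates, rose by 5.39 (SE 0.38).

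The antiviral effectors formed the longest list, with 35 of 38 higher, 0 lower and a median of 1.86. Ifitm3 measured 569, 615, 482 and 277 CPM in members of the saline libraries and 449 and 1013 CPM in those of MIA 1 and MIA 2, against 6.56 to 8.43 CPM in other microglia (log2 difference 6.17, SE 0.14, edgeR adjusted p = 4.9e-39). Every member value was above every value of the other microglia, and saline 3-male was lowest. Rtp4 rose by 3.93 (SE 0.11), Bst2 by 2.89 (SE 0.09) and Lgals3bp, a secreted glycoprotein, by 2.82 (SE 0.09). Mx1, a dynamin-like antiviral GTPase, rose by 5.02 (SE 0.37) and Cmpk2, a mitochondrial nucleotide kinase that neighbours Rsad2, by 5.24 (SE 0.47).

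Several families of near copies rose as well, and their single members are uncertain because reads of close paralogs may be assigned to one another. All 6 tested genes of the Ifi200 family, DNA-binding proteins encoded in a cluster on chromosome 1, were higher, with a median of 6.38. Ifi206 rose by 8.38 (SE 0.55), Ifi207 by 6.96 (SE 0.40), Ifi204 by 6.69 (SE 0.31) and Ifi209 by 5.73 (SE 0.34). Ifit3b, a near copy of Ifit3, rose by 7.76 (SE 0.36). All 12 interferon-induced GTPases tested were higher (median 1.73), among them Iigp1 (7.94, SE 0.48), Gbp2 (3.01, SE 0.32), Irgm1 (2.01, SE 0.14) and Igtp (1.87, SE 0.14), which act on the vacuoles of intracellular pathogens. All 4 Schlafen genes tested were higher (median 2.82), led by Slfn5 (5.76, SE 0.16), with 154 to 329 CPM in members and 3.16 to 4.50 CPM in other microglia.

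Of 10 genes of Isg15 conjugation and the interferon-induced poly(ADP-ribose) polymerases, 8 rose and 0 fell (median 1.53). Parp14 rose by 2.47 (SE 0.10), Herc6, the mouse ligase that attaches Isg15, by 2.27 (SE 0.15), Parp9 by 1.78 (SE 0.12) and Parp12 by 1.73 (SE 0.16). These were moderate changes in genes already read in other microglia, where Parp14 had 43.6 to 55.5 CPM. Of the feedback regulators, 1 of 6 rose. Socs1, which blocks the receptor kinases, rose by 2.16 (SE 0.32, 5.73 to 59.1 CPM in members), and Socs3 measured -0.69 (SE 0.30, edgeR adjusted p = 0.21).

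Class I antigen presentation rose in 14 of 18 genes with 0 lower (median 0.88). The peptide transporter Tap1 rose by 1.57 (SE 0.14) from 26.2 to 36.5 CPM to 68.3 to 108 CPM. The class I heavy chains, which resemble one another and are uncertain for that reason, included H2-K1 (1.20, SE 0.10), H2-D1 (1.07, SE 0.10) and the non-classical H2-T23 (1.40, SE 0.12). Class II rose in 2 of 4 genes tested. Its invariant chain Cd74 had 125, 32.0, 98.3, 17.2, 0 and 94.6 CPM in members against 7.23 to 15.7 in other microglia (log2 difference 2.43, SE 0.28), and MIA 1 members had none.

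Of 4 interferon-induced chemokine genes tested, 3 rose and 0 fell. Ccl12, a ligand of Ccr2, measured 358, 752, 416, 185, 839 and 770 CPM in members and 87.7 to 136 CPM in other microglia (log2 difference 2.25, SE 0.13), with no overlap. Ccl5 rose by 3.84 (SE 0.64), but its UMIs lay mainly in MIA 2, at 60.2 CPM, while 3 libraries had 0. Ccl2 rose by 2.28 (SE 0.33), with 0 CPM in MIA 1 members. These last calls passed in edgeR and not in DESeq2. The inflammatory chemokine Ccl3 fell by 1.41 (SE 0.36, edgeR adjusted p = 0.0082), from 10.8 to 27.9 CPM to 0 to 12.9, and Ccl4 (-0.75, SE 0.32) did not pass, except without shared barcodes and without saline 3-female, where it was lower in members.

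Among 12 genes of cell death and immune checkpoints, 5 rose and 0 fell. In DESeq2 3 of 12 were higher, and against depth-matched other microglia 2 of 7 tested were. Cd47, the signal that restrains phagocytosis, rose by 0.76 (SE 0.09), with 283 to 481 CPM in members and 193 to 221 in other microglia. Tnfsf10 (TRAIL), a death ligand, rose by 2.76 (SE 0.46), Cd274 (PD-L1) by 2.88 (SE 0.60) and Casp1, the inflammasome protease, by 0.78 (SE 0.19). Of 18 phagocytic receptors, 4 rose and 0 fell. Siglec1, a sialic acid receptor, rose by 3.79 (SE 0.61) and the Fc receptors Fcgr4 and Fcgr1 by 2.57 (SE 0.29) and 0.90 (SE 0.09).

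Of 20 homeostatic microglial genes, 7 were lower and 0 higher, with a median of -0.21. Without shared barcodes 7 were down with a median of -0.10 (-0.06 over all genes), and against depth-matched other microglia 5 were down with a median of -0.10 (-0.00 over all genes). P2ry12 measured 5428, 5386, 4028, 3725, 4868 and 5328 CPM in members and 5914 to 6498 in other microglia, a fall of 0.35 on the log2 scale (SE 0.08, edgeR adjusted p = 0.0011). P2ry13, a related ADP receptor, fell by 0.47 (SE 0.08), and Slc2a5, a fructose transporter typical of microglia, fell by 0.49 (SE 0.09). The lowest P2ry12 values were those of the saline 3 libraries. Pooled over libraries and with no test, P2ry12 was 5059 CPM in the 186 members with 6 UMIs or more without Ifi27l2a. It was 5217 CPM in the 68 with 2 to 5 and 2652 in the 56 with at most 1, against 6128 in other microglia. Without shared barcodes these values were 5427, 5421, 4182 and 6228 CPM. With members chosen on 8 genes, 10 of the 20 homeostatic genes were lower, with a median of -0.18 (-0.08 over all genes). Of 20 disease-associated microglial genes tested, 4 were higher and 1 lower (median 0.08), with 2 higher and 2 lower when members were chosen on 8 genes and 3 higher and 3 lower without shared barcodes. Axl, a receptor for dying cells, rose by 3.04 (SE 0.39) and the growth factor gene Csf1 by 1.32 (SE 0.26), whereas Cd9 fell by 0.37 (SE 0.09).

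Of 12 other inflammatory genes, 1 rose (Il6, 1.52, SE 0.47) and 1 fell (Ccl3), and each call was lost in DESeq2 and with members chosen on 8 genes. Of 14 early response genes, which tissue handling can induce, 0 rose and 2 fell, namely Jun (-0.51, SE 0.10) and Egr1 (-2.25, SE 0.70). In DESeq2 1 of 14 was lower. With members chosen on 8 genes and without shared barcodes 1 of 13 was, and against depth-matched other microglia 1 of 8. Of the 14 tested genes that the study listed for MIA at P14, 1 was higher and 3 lower in members; Fam46a rose by 0.85 (SE 0.10). That list was chosen by the study on these samples.

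Cell cycle genes were higher in members in 17 of 20 (median 1.92), and this rested on part of the libraries. Top2a, the DNA topoisomerase of dividing cells, measured 125, 192, 170 and 290 CPM in saline members and 0 in members of each MIA library, against 2.64 to 46.1 CPM in other microglia (log2 difference 2.75, SE 0.24). The 4 saline libraries were high and the MIA libraries empty. With members chosen on 8 genes, 10 of 20 were higher and the median was 0.98, and without shared barcodes 13 of 19 were higher. In DESeq2 5 of 20 were higher and against depth-matched other microglia 3 of 14, with Top2a, Ube2c and Mki67 called in neither.

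Markers of other cell types were read beside these results. Monocyte markers summed to 69.8 to 144 CPM in members and 13.7 to 19.02 in other microglia, with 2 of 4 tested higher (median 0.98). In DESeq2, with members chosen on 8 genes and without shared barcodes 1 of 4 was higher, with a median of 0.0041 in the last. Plac8 rose by 3.93 (SE 0.22), while Ly6c2, Chil3 and Vcan had no UMI in members. Border macrophage markers summed to 184 to 487 CPM against 256 to 313, with 3 of 5 higher (median 0.56). Without shared barcodes 1 of 4 was higher and 1 lower (median -0.45), with Dab2 at -0.42, and with members chosen on 8 genes 1 of 5 was higher and 1 lower (median 0.52). Neutrophil (75.6 to 168 CPM against 118 to 137) and lymphocyte markers (273 to 370 against 301 to 342) had 0 of 2 higher each, and S100a8, Cd3e and Cd79a were among those with no UMI in members. Endothelial markers summed to 17.4 to 51.6 CPM against 32.2 to 41.7, with 0 of 2 passing. Their part in the member profile was not tested.

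Markers of red blood cells and of other brain cells fell in part. Red cell markers summed to 2.12 to 46.6 CPM against 3.80 to 1380 in other microglia, and 4 of 4 were lower in members in edgeR. Members held 44 UMIs of these markers over the 6 libraries, against 46064 in the far deeper sums of other microglia. The level in other microglia varied widely by library, so no fold difference is given for red cell markers. Other microglia of saline 3-female had the most Hbb-bt, at 138 CPM. Neuronal markers summed to 32.1 to 61.6 CPM against 52.0 to 250 (1 of 6 fell), astrocyte markers to 58.5 to 169 against 124 to 211 (3 of 4 fell), and oligodendroglial markers to 61.6 to 133 against 96.4 to 152 (2 of 4 fell, 1 rose). DESeq2 called 0 of these red cell, neuronal, astrocyte and oligodendroglial markers. Against depth-matched other microglia 0 of 1 astrocyte and 0 of 3 oligodendroglial markers tested passed. In that setting 1 of 1 neuronal marker tested was lower (log2 difference -2.40), and no red cell marker was left to test. Gria2, a glutamate receptor gene (-3.47, SE 0.68), Cpe, a prohormone-processing enzyme (-2.88, SE 0.53), and Mt3, a brain metallothionein (-2.84, SE 0.41), fell as well. Dqx1, Kif5a, Scg3, Taf9b and Cnih2 had 0 UMIs in members of all 6 libraries. These genes passed the filter only through the far deeper sums of other microglia, so no fold difference is given for them. At a threshold of 4 UMIs the fitted difference of Dqx1 turned to 0.017.

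The ISRE letters were set against these calls. They occurred in 936 of 27025 promoter windows (3.46%), and in 287 of the 8838 windows of tested genes (3.25%). Among genes higher in members, 52 of 386 windows held them (13.5%), and 35 of 206 (17.0%) among those higher by at least 1 on the log2 scale. Among genes lower in members, 5 of 157 did (3.18%), and among listed cell cycle genes 0 of 17. Of the 20 genes with the largest log2 difference, 7 of the 15 with a window held the letters. The sites of 5 of these are shown in 30 bases of reference sequence each, with the match in capitals, to compare 3 genes of the chromosome 1 Ifi200 cluster with Oas1a and Slfn5. The first 3 lie on the minus strand at chr1:173491339-173491368, chr1:173599326-173599355 and chr1:173536017-173536046, Oas1a at chr5:120907526-120907555 on the minus strand and Slfn5 at chr11:82951937-82951966 on the plus strand.
Ifi206: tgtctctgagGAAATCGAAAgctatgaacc
Ifi213: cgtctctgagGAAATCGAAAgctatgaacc
Ifi214: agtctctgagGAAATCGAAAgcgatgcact
Oas1a: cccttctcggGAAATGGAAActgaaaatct
Slfn5: ccttcaaagtGAAAAAGAAAaaaaaaaaag
Ifi206, Ifi213 and Ifi214 carried the same 10 letters, as did Ifi207 of that cluster, 41 bases before its start, whereas the window of Ifi209 held no match. In Oas1a the match began 20 bases before the start and was overlapped by a second at 14 bases, closer than in Ifi206 (40 bases), Ifi213 (73), Ifi214 (79) and Slfn5 (155).

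Within the members, MIA was compared with saline (edgeR on member UMIs summed per library, 4 against 2). Of 6148 genes tested, 42 passed (0.683%), 5 higher in MIA (0.0813%) and 37 lower (0.602%). None of the 113 listed interferon-pathway genes tested passed, and their median log2 difference was 0.25 (-0.02 over all genes). Listed cell cycle genes with no UMI in MIA members passed the filter only through the saline libraries, so no count over the list is given. Top2a had 22, 66, 90 and 152 UMIs in saline members and 0 in members of each MIA library. Ube2c, which drives exit from mitosis, had 27, 41, 39 and 120 against 0 and 0. Mki67, the proliferation marker, had 3, 45, 71 and 179 against 0 and 0. These UMIs were counted with shared barcodes kept. Stmn1, a microtubule regulator, measured 313, 268, 215 and 313 CPM in saline members and 70.9 and 25.8 CPM in MIA members, with no overlap (log2 difference -2.77, SE 0.33, edgeR adjusted p = 8.8e-05). With members chosen on 8 genes Stmn1 did not pass (-1.30, adjusted p = 0.572), and without shared barcodes it did (-2.58, edgeR adjusted p = 0.00099).

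These treatment calls rested on few cells. The dividing members numbered 3, 3, 9 and 9 in the saline libraries and 0 and 1 in MIA. Members chosen on 8 genes gave 7 calls (2 higher, 5 lower) and members without shared barcodes 13 (3 higher, 10 lower). Sums split by the sex of the cells, with sex as a covariate, gave 5. Sex was read from a Xist or Tsix UMI, or from the label in the saline 3 libraries. That fit took the female and male sums of a library as separate samples, with no library term. Without saline 2 there were 70 calls. Without MIA 2 there was 1 and without MIA 1 there were 21, in fits where the lone MIA library is assumed to vary like the saline libraries. Ddit4, a stress-induced inhibitor of mTOR, rose by 2.40 (SE 0.36, edgeR adjusted p = 0.00065), but with values of 20.4 to 56.9 CPM in saline members and 70.9 and 258 CPM in MIA members the rise lay mostly in MIA 2, whose other microglia also had 317 CPM.

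Whether the difference between members and other microglia itself changed with MIA was tested as an interaction. Of 11403 genes, 35 passed (0.307%), 2 higher in MIA (0.0175%) and 33 lower (0.289%). Stmn1 (-2.55, SE 0.29) and Hmgb2 (-1.46, SE 0.23), a chromatin protein of dividing cells, were among those lower. With members chosen on 8 genes neither passed. Without shared barcodes Stmn1 (-2.66, edgeR adjusted p = 1.4e-17) and Hmgb2 (-1.55, adjusted p = 4.4e-09) passed. No count over the listed cell cycle genes is given here either, because Top2a, Ube2c and Mki67 among others had no UMI in MIA members. Apoe, the lipid carrier, differed by -1.23 (SE 0.17), with 1172, 906, 4406 and 3563 CPM in saline members, 585 and 1413 CPM in MIA members and 1396 to 1739 CPM in other microglia. Members held more Apoe than other microglia in the saline 3 libraries only among the 6, and without shared barcodes the difference shrank to -0.44 (edgeR adjusted p = 0.0153). Ccl12 was the 1 listed interferon gene that passed, at 0.81 (SE 0.17, edgeR adjusted p = 0.0015), and its members' values in saline 2 (752 CPM) came near those of MIA 1 (839 CPM) and MIA 2 (770 CPM). Ccl12 lost the call without MIA 1, without MIA 2, without saline 3-male, at a threshold of 4 UMIs and in DESeq2, while it kept it with members chosen on 8 genes (0.88, SE 0.16). DESeq2 called 1 gene in place of 35, and the count was 3 without MIA 1 and 4 without MIA 2 (each with 1 MIA library left, assumed to vary like saline), 15 without saline 3-male and 57 without saline 2.

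Cells that met the same definition in sorted E15 libraries (3 saline, 3 MIA) numbered 57 to 486 per library and 3.05% to 9.49% of microglia. The 8 genes other than Ifi27l2a gave 1.17% to 3.57%, against 0.286% to 0.928% at P14. By the 8 genes, 60 of 486, 99 of 157 and 78 of 176 members remained in E15 saline 1, 2 and 3. In E15 MIA 1, 2 and 3 it was 84 of 140, 54 of 120 and 24 of 57, against 186 of 310 at P14. Members by the 9 genes thus differed between libraries and ages in how far they rested on Ifi27l2a. After thinning each cell to 2000 UMIs with a threshold of 3 UMIs of the 8 genes, the shares were 0.679% to 2.86% at E15 and 0.267% to 0.735% at P14. These shares are given as a description, with no test of age.

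The age interaction asks whether the step from other microglia to members differed between P14 and E15. Of 12513 genes, 128 passed (1.02%), 99 higher at P14 (0.791%) and 29 lower (0.232%). Libraries of the ages differed in depth, with medians of 8482.5 to 11721 UMIs per barcode at E15 and 3682 to 6787 at P14. With every cell thinned to 2000 UMIs and members chosen at 3 summed UMIs, 115 genes passed, of which 29 were among the 128 (22.7%). Without shared barcodes 88 passed, of which 65 were among the 128 (50.8%). Ccl4 was the clearest chemokine, with 0, 0, 24.6, 9.55, 0 and 25.8 CPM in P14 members, 53.7, 1582, 737, 1176, 567 and 658 CPM in E15 members (3 saline, then 3 MIA), and 7.09 to 36.0 CPM in other P14 and 21.8 to 216 CPM in other E15 microglia. P14 members held no Ccl4 UMI in 3 of 6 libraries and lay inside the range of other P14 microglia in the other 3, whereas 5 of 6 E15 libraries held 567 CPM or more in members (interaction log2 difference -3.90, SE 0.58, edgeR adjusted p = 0.0013). Ccl3 differed by -2.23 (SE 0.38) and Ccl5 by -4.28 (SE 0.73), with 0 to 60.2 CPM in P14 members and 3.99 to 693 CPM in E15 members. E15 saline 1 had the least Ccl4 and Ccl5 of the E15 libraries and the most members, of which 60 of 486 met the threshold without Ifi27l2a.

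**Figure D5:**
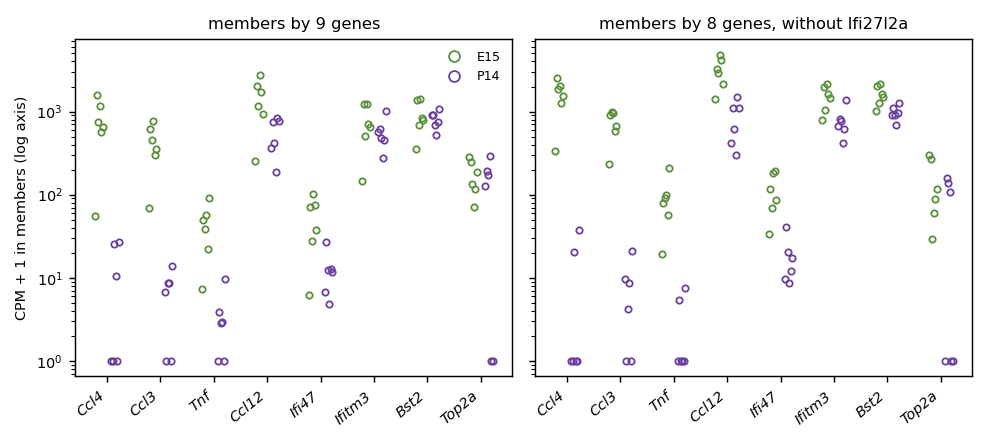
Levels (CPM plus 1, log vertical axis) of chosen genes in interferon-responsive cells of the 6 E15 and 6 P14 sorted libraries, 1 point per library, with members chosen by the 9 genes (left) and by the 8 genes without Ifi27l2a (right). By the 9 genes Ccl4 spans 53.7 to 1582 CPM at E15 and 0 to 25.8 CPM at P14, and Ifitm3 spans 143 to 1248 CPM at E15 and 277 to 1013 CPM at P14.

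Of 20 listed cell cycle genes, 13 stood out more at P14 and 0 less, among them Top2a (2.57, SE 0.37), Mki67 (2.29, SE 0.36) and Prc1 (2.56, SE 0.39). Top2a, Mki67 and Prc1 had 0 UMIs in members of both MIA P14 libraries. Their UMIs in P14 members thus all lay in saline libraries, and the difference is not shown for MIA members. Gpx3, a secreted peroxidase, stood out more as well (2.23, SE 0.27), but did not pass without shared barcodes (1.21, edgeR adjusted p = 0.589). At E15, Top2a measured 69.2 to 282 CPM in members and 65.6 to 277 CPM in other microglia. With members chosen on 8 genes 3 of the cell cycle genes were higher at P14, and without shared barcodes 10 were. The result leaned on single libraries, with 9 genes passing without saline 3-male (2 higher, 7 lower) and 276 without E15 saline 1. When members of each age were chosen on the 8 genes, 159 genes passed (31 higher, 128 lower), 37 of them among the 128 by the 9 genes (28.9%). Of 144 pooled interferon-pathway genes, 1 was then higher at P14 and 42 lower (median -0.69), against 1 higher and 4 lower by the 9 genes (median -0.22). Outside that pool, 1 feedback regulator was lower and 1 class II gene higher by the 9 genes. By the 8 genes, 3 feedback regulators and 2 cell death or checkpoint genes were lower and 1 class II gene was higher. In that setting, and picked after values were seen, Ccl4 differed by -5.39 (SE 0.39), Tnf by -5.08 (SE 0.80), Ccl12 by -2.73 (SE 0.27), Isg20, an exonuclease, by -2.55 (SE 0.30) and Ifi47, an interferon-induced GTPase, by -3.48 (SE 0.45). Ifitm3 (-0.10, SE 0.22) and Bst2 (-0.06, SE 0.14) did not pass.

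Finally, members were scored for 4 other states after thinning to 2000 UMIs, which left 307 members and 27491 other microglia. No member was Ccl3 and Ccl4-high (0 of 307 thinned cells pooled over the libraries, which at that depth and for counting error only allows a share of up to 0.977%), against 0.397% ± 0.132 (SD, n = 6) of other microglia by library. No member was high in early response genes (0 of 307) against 0.806% ± 0.360 (n = 6). With 30 to 72 members per library, these zeros are given as counts with no test. Dividing cells made up 13 of 307 members, 3.95% ± 3.53 against 0.910% ± 0.845 (n = 6; exact permutation, adjusted p = 0.167), and were more frequent than in other microglia in 4 of 6 libraries and absent from both MIA libraries. Without shared barcodes they made up 7 of 277 members, 2.68% against 0.344% by library, and were more frequent in 3 of 6 libraries (exact permutation over n = 6 libraries, p = 0.25). With members chosen on 8 genes they made up 4 of 184 members, 1.90% against 0.938% by library. They were then more frequent in 3 of 6 libraries (exact permutation over n = 6 libraries, adjusted p = 0.375). Cells positive for Itgax or Lpl, genes of a growth-associated microglial state, made up 1.43% and 1.53% (exact permutation over n = 6 libraries, adjusted p = 0.906). With all UMIs kept, 5 of 310 members were Ccl3 and Ccl4-high and the difference turned to 0.229 percentage points, while 17 of 310 were high in early response genes, 5.47% against 7.41% by library (exact permutation over n = 6 libraries, adjusted p = 0.4375, lower in 5 of 6).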

How the data were processed

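Counts of UMIs per gene and cell were deposited by the authors as raw, unnormalised whole numbers, made with Cell Ranger 3.1.0 per the file headers and the mm10 build per the labels. The filter on barcodes asked for 500 genes or more and no more than 20% of UMIs from mitochondrial genes. Doublets were not removed in the main analysis, and scanpy 1.11.5 (Scrublet) scores were used in an alternative, in which no member was lost. Sums of UMIs over the cells of a class in each library were fitted with edgeR 4.0.16 in R 4.3.3 (TMM factors, filterByExpr, quasi-likelihood test, Benjamini-Hochberg adjustment at 0.05), with the library as a block where members were compared with other microglia. The SE beside an edgeR log2 difference is its absolute value over the square root of the test's F statistic, and not an SE fitted by the model. Scripts were tested on simulated data. Shares were compared over libraries with two-sided exact permutation tests (scipy 1.17.1), and intervals are exact binomial (Clopper-Pearson) at 95%, covering counting error only. For states and some shares each cell was thinned to 2000 UMIs, and shallower cells were left out, which kept 307 of 310 members and 27491 of 29142 other microglia. Nothing says that libraries of 1 group are separate litters except where given, so p-values measure the spread between these libraries, which may be technical. The 13 genes of the definition were left out of every table tested.

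Named genes were the 20 with the largest and the 10 with the smallest log2 difference among those that passed and changed one way in all 6 libraries, the 4 genes of each list with the smallest p, and up to 20 genes by p of the treatment, interaction and age tests. Members, gene lists and tests were chosen with earlier results of these data known. Alternatives were DESeq2 1.42.0, other size factors, no filter, thresholds of 4 and 10 UMIs, 8 genes without Ifi27l2a, doublets removed, depth-matched others, libraries left out and, chosen after seeing the data, no shared barcodes. Gene positions are from GENCODE M21 and promoter sequences from RefSeq (GRCm38.p6). Some listed genes are not reported here by name.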

Additional observations from a re-analysis of the deposited data

Results flagged for a closer look

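In 3 of 40 groups of 4 saline libraries, 1 library stood far from the others; chance gives about 1 in 20. Ifit2 averaged 2.88 UMIs per member in saline 2 and 1.05 to 1.29 in the other saline libraries. Ifi27l2a averaged 3.41 UMIs per member in saline 1 and 4.85 to 5.00 in the others. Oas1a stood at 69.9 CPM in members of saline 2 and 17.0 to 22.8 CPM in the others.

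The 20 genes below passed edgeR's interaction test of the step from other microglia to members between MIA and saline, given as log2 differences (MIA minus saline). DESeq2 called 1 gene in place of the 35 of edgeR. Grouped here by hand and with no test, genes linked to cell division were Stmn1 (-2.55), Top2a (-12.5), Hmgb2 (-1.46), Cenpf (-5.14), H2afx (-3.63), Ube2c (-12.0), Hist1h2ap (-3.80), Mki67 (-11.7), Cenpa (-4.76), Prc1 (-11.6), Lmnb1 (-2.66) and Smc2 (-2.44). The others were Apoe (-1.23), Gm10076 (-1.24), mt-Atp6 (-0.79), Fabp5 (-4.41), Xist (-0.91), Pgd (-1.39), Emp3 (-1.24) and Ccl12 (0.81). Without shared barcodes Gm10076, mt-Atp6, Fabp5, Xist, Pgd and Emp3 did not pass, and with members chosen on 8 genes Apoe, Ccl12 and Xist alone of the 20 did. Top2a, Ube2c, Mki67 and Prc1 had 0 UMIs in members of both MIA libraries, so their fitted values depend on the prior count and are no bounds. They entered the test through saline members and other microglia, and their calls are not read as a measured difference. Xist had 364, 486, 1020 and 306 CPM in saline members and 148 and 336 CPM in MIA members, in libraries that differ in the sexes they hold, and the part of sex in it was not tested.

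The step also differed between P14 and E15 for the 20 genes below (log2 difference, P14 minus E15). Higher at P14 were the cell division genes Kif23 (2.67), Top2a (2.57), Prc1 (2.56), Mki67 (2.29), Sgo2a (2.56), Plk1 (2.49), Bub1b (2.06), Cenpf (2.38), Nusap1 (2.53), Pclaf (1.88) and Nuf2 (2.58). Gpx3 (2.23), Gm42047 (2.47), Lgals1 (2.39) and Plin2 (1.18) were higher as well, but without shared barcodes Gpx3 stood at 1.21 (edgeR adjusted p = 0.589), Lgals1 turned to -0.55 (adjusted p = 0.976) and Plin2 stood at 0.56 (adjusted p = 0.236), and with members chosen on 8 genes Lgals1 stood at 0.85 (adjusted p = 0.611) and Plin2 at 0.61 (adjusted p = 0.198). Lower at P14 were the chemokine genes Ccl4 (-3.90), Ccl3 (-2.23), Ccl5 (-4.28) and Ccl9 (-0.88), and the actin bundler Fscn1 (-0.79). With cells thinned to 2000 UMIs, Plk1 turned to -0.187 and Nuf2 to -0.272. Kif23, Top2a, Prc1, Mki67, Plk1 and Nuf2 had 0 UMIs in members of both MIA P14 libraries.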

How the results depend on the processing

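The share difference between MIA and saline (-0.268 percentage points) kept its sign in 9 of 9 settings that kept all libraries and made no pairs; leave-one-out values ran from -0.638 (without MIA 2) to 0.101 (without MIA 1). No label says what libraries of equal replicate number share, and with 2 MIA libraries, whose deviations mirror each other, the correlations of deviations (0.060 and 0.039) decide little, so they were not taken as pairs; with a replicate block the share difference was 0.00880 points and 31 treatment genes passed in place of 42. Genes between members and other microglia numbered 393 in DESeq2, 441 with 8 genes, 319 against depth-matched others and 392 with no replicate block (the library as block left out), and 396 to 711 with 1 library left out, against 690. Treatment genes numbered 21 in DESeq2, 108 with no filter, 27 and 21 at thresholds of 4 and 10 UMIs, 7 with 8 genes, 13 without shared barcodes, 5 with sums split by sex and 1 to 70 with 1 library left out. Interaction genes with treatment (35) numbered 1 in DESeq2, 8 at 10 UMIs, 3 with 8 genes, 23 without shared barcodes and 3 to 57 with 1 library left out. Age genes (128) numbered 218 with no filter, 252 at 4 UMIs and 9 to 276 with 1 library left out. With all UMIs the state differences were 0.229 points (Ccl3 and Ccl4-high) and 4.02 (Itgax or Lpl), the latter 0.156 at 10 UMIs and -0.617 to 0.235 with 1 library left out. Signs turned for Dqx1 (0.0167 at 4 UMIs), Lyz2 (-0.0520 with 8 genes), Dab2 (-0.418) and, by age, Lgals1 (-0.555), both without shared barcodes, and by age Plk1 (-0.187) and Nuf2 (-0.272) after thinning. Where not stated, the cause was not tested. Libraries held 30 to 72 members each.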
